A study of Pleurotus ostreatus with 32 samples.

Results

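In the oyster mushroom Pleurotus ostreatus, 115 of the 10755 genes in the deposited expression table were high in the vegetative mycelium, low in primordia and young fruiting bodies, and high again in the mature cap and stipe. They were chosen from measured levels: the lowest group mean of log2 FPKM (fragment counts scaled by gene length and by library depth) among mycelium, mature cap and mature stipe had to be at least 2 log2 units, or 4-fold, above the highest mean among stage 1 primordia, both parts of stage 3 primordia (cap, stipe) and both parts of young fruiting bodies. The mean raw count also had to be at least 100 in each of the 3 high groups, a condition that 7242 genes met. The contrast of high with early groups is therefore not a finding and has no test here. Differences among the 3 high groups, or among the 5 early ones, are also limited by the choice; for these, counts of calls and fold changes are given as a description of the chosen genes, and nothing is read from their shares against all genes. The 3 other tissues, which are mature lamellae, skin and dedifferentiated cap, took no part in the choice.

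All libraries came from the dikaryotic strain N001, raised as spawn culture in bags, at a temperature of 18 to 19 °C, a humidity of 80 to 85% and a daily cycle of 8 h light, 16 h dark. Groups were set by developmental stage and tissue, with no genotype or treatment contrast: vegetative mycelium, whole stage 1 primordia, stage 3 primordia and young fruiting bodies each divided into cap and stipe, and mature fruiting bodies divided into stipe, cap, skin, lamellae (gills, which bear the spores) and a tissue labelled dedifferentiated cap, which the labels do not explain further. There were 3 libraries per group and 2 of dedifferentiated cap. For fruiting-body samples, tissue of 3 to 8 bodies was pooled per replicate, so their spread is one between pools; how mycelium was pooled is not stated. Total counts ran from 13.8 to 20.4 M (mega counts) in the 3 high groups, from 18.7 to 25.9 M in the 5 early groups and from 13.5 to 22.8 M in the other mature tissues. The files give genes as numbers without names, and 0 of these numbers matched the 11849 genes of the reference list (assembly ASM1446616v1, strain PC9), so functions, chromosome positions and sequences are not given and the tissue labels were not checked against marker genes.

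As background, the oyster mushroom is a wood-decaying basidiomycete. Its mycelium is a network of hyphae that grows through the substrate, secretes enzymes and takes up nutrients. Fruiting starts when hyphae aggregate into compact primordia, in which cap and stipe become distinct, and mature fruiting bodies expand and form spores on the lamellae. Fruiting-body tissue consists of hyphae too. In bulk RNA of this kind, fewer cells of a type and less RNA per cell cannot be told apart.

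Across the 115 genes, the median level was 6.92 log2 FPKM in mycelium, 2.61 in stage 1 primordia, 2.05 in stage 3 cap and 2.03 in stage 3 stipe, 2.39 in young cap and 2.54 in young stipe, 6.09 in mature cap and 6.73 in mature stipe. Over all genes of the table the group medians stayed between 4.53 and 4.81 in the 11 groups. The genes together held 3.65 to 5.09% of all counts in the mycelium libraries, 0.0673 to 0.211% in the early libraries, 1.01 to 1.41% in mature cap and 1.51 to 1.79% in mature stipe. The mycelial shares rested in part on single genes. Gene 7857 alone had 145806.5, 188017.3 and 272777.7 counts in mycelium, of library totals of 17.3, 13.8 and 16.1 M. In mature cap it had 839, 1692 and 2026 counts, and in mature stipe 384, 602 and 843. Gene 5245 had 112061.7 counts in mycelium replicate 1, and 1019 and 2417 in replicates 2 and 3. Of the 1047 genes at least 2 log2 units higher in mycelium than in every early group, and whose mean mycelium count reached 100, 932 were not among the 115. Of the 219 genes at least 2 log2 units higher in both mature cap and stipe than in every early group, with that count in both, the 115 made up 52.5%. The opposite pattern, with all 5 early groups at least 2 log2 units above mycelium, mature cap and stipe, was met by 38 genes.

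**Figure D1:**
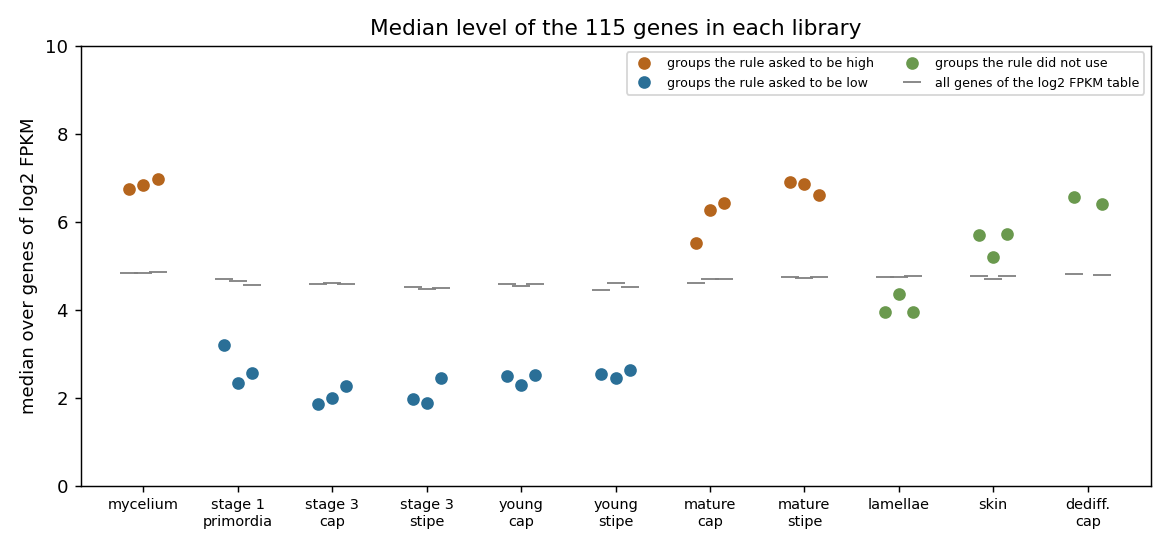
Median log2 FPKM over the 115 genes in each library (points, coloured by the role of the group in the choice of the genes) and over all genes of the table (grey dashes), by tissue group. The early libraries lie between 1.85 and 3.21, the mycelium libraries between 6.76 and 6.98, and of the tissues not used for the choice the lamellae lie between 3.94 and 4.36 and the dedifferentiated cap at 6.42 and 6.56.

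The genes were low in the early groups rather than silent. A mean below 1 FPKM in all 5 early groups was found for 6 of them, whereas 88 had at least 1 FPKM in each early group and 55 reached 10 FPKM in at least 1. The gap between the lowest high group and the highest early group ran from 2.00 to 7.89 log2 units with a median of 2.42, and 88 of the genes had a gap under 3. For 105 of the 115, each of the 9 high libraries was above each of the 15 early ones, which the choice itself favours. Just inside the threshold lay gene 9949, with a gap of 2.00, and gene 1467, with 2.01. Just outside lay gene 1362, with 1.99, and gene 5598, with 1.97.

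Gene 9698 had the widest gap, 7.89 log2 units. Its levels were 476, 393 and 846 FPKM in mycelium, 108, 276 and 172 in mature cap, and 250, 228 and 153 in mature stipe. In stage 1 primordia it had 7.02, 0.0869 and 0.150 FPKM, and in the other early libraries between 0.0877 and 2.20. All high libraries thus stood far above all early ones, and replicate 1 of stage 1 primordia was the highest of the early libraries, with 92 counts against 1 and 2 in the other replicates of that group. The second widest gap, 5.39, belonged to gene 1127, with 37.6, 38.3 and 40.9 FPKM in mycelium, 12.9, 23.6 and 18.4 in mature cap, and 58.6, 57.9 and 31.8 in mature stipe. Its early libraries held 0 to 16 counts, or at most 1.25 FPKM.

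By mean level over mycelium, mature cap and mature stipe, the first 4 of the genes were 4244, 3171, 10582 and 11375. Gene 10582 was even among the high libraries, at 1203, 973 and 1567 FPKM in mycelium, 618, 958 and 1205 in mature cap, and 1269, 1256 and 1048 in mature stipe, with 88.6 to 206 FPKM in the early libraries. Gene 4244 was uneven, with 507, 6611 and 991 FPKM in mycelium, and its highest early library, stage 3 stipe replicate 2 at 472 FPKM, came close to the lowest mycelium library. Gene 3171 had 3056, 4628 and 3673 FPKM in mycelium but 225, 841 and 620 in mature cap. Coding lengths, obtained from the ratio of counts to FPKM, were short for some of these genes: 111 bases for gene 3171, 234 for gene 11375 and 300 for gene 4244. With reads of 150 bases, the FPKM of such genes rests on a short denominator, so their rank among genes is less certain than their differences between libraries. The median coding length was 1073 bases over the 115 genes and 975 over the 10201 genes of the table with a value. Fractional counts, which can arise where a read fits more than 1 gene, occurred in at least 1 library for 22.6% of the 115 genes and for 24.3% of the table.

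**Figure D2:**
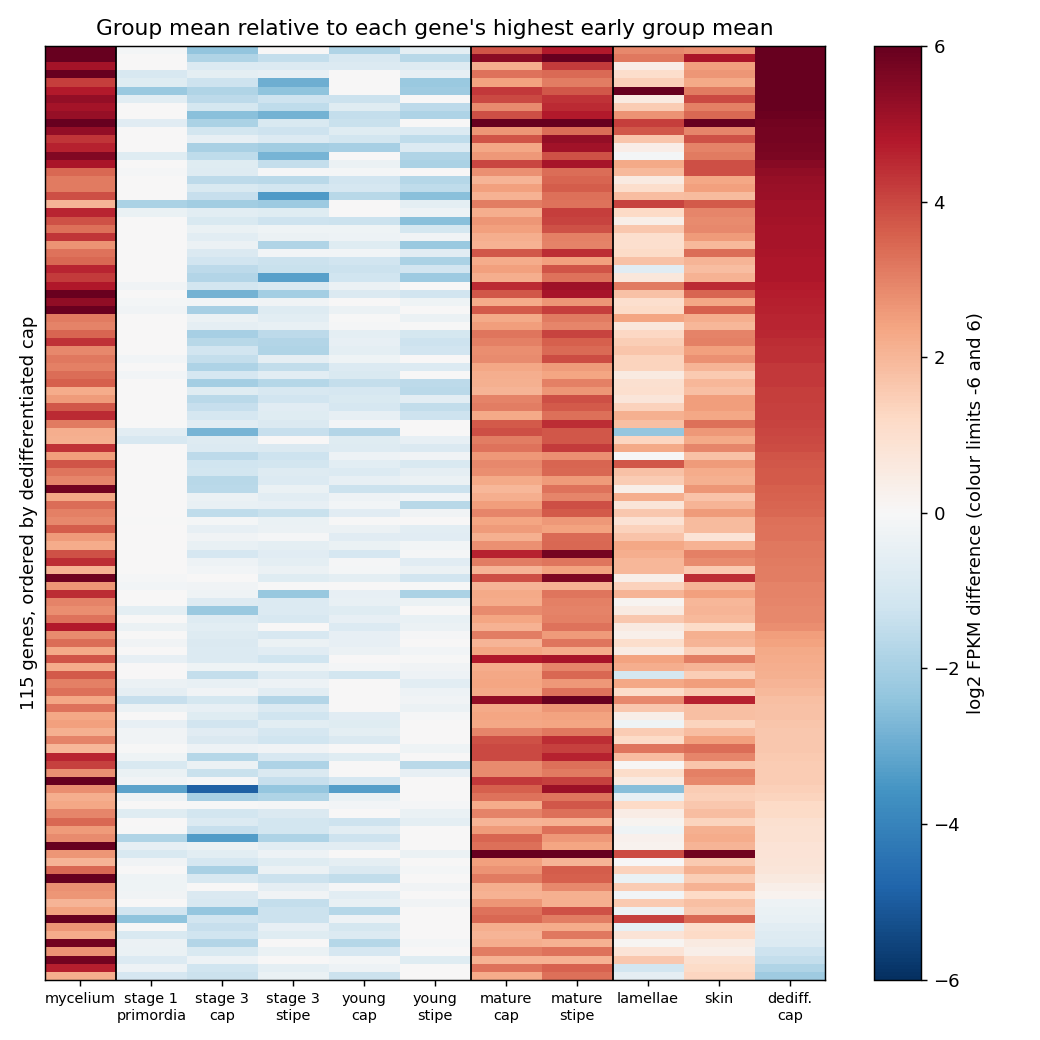
Mean log2 FPKM of each of the 115 genes (rows) in 11 tissue groups (columns), relative to the gene's own highest early group mean, ordered by the dedifferentiated cap. Lines separate mycelium, early groups, mature cap with stipe, and the 3 tissues that did not enter the choice; in the last column the values range from red to blue, while skin is red for nearly all rows and lamellae are mostly pale.

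How near the mature tissues came to the mycelial level was described by setting each against mycelium. All 3 group means entered the choice, which limits how far they can differ, and both comparisons share the mycelium libraries. In mature cap, 44 of the 115 genes differed at least 2-fold with an adjusted p below 0.05 (quasi-likelihood test of edgeR, adjusted by Benjamini-Hochberg), 4 higher and 40 lower than in mycelium, against 36.2% of all 10814 genes tested called in either direction, 13.6% higher and 22.6% lower. In mature stipe 32 differed, 11 higher and 21 lower, against 35.7% of all genes, 14.5% higher and 21.2% lower. The median log2 fold change over the 115 genes was -0.71 in cap and -0.27 in stipe, beside -0.14 over all genes in both comparisons. By group means alone, 62 of the 115 genes in cap and 72 in stipe lay within 1 log2 unit of mycelium. The stipe median was 0.019 without mycelium replicate 2, so its sign rested on that library. The 4 genes higher in cap were 2 without mycelium replicate 3 and 7 without mycelium replicate 2. The 11 higher in stipe were 7 without mycelium replicate 3 or mature stipe replicate 2, and 15 without mycelium replicate 2.

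Gene 7857 showed the largest shortfall. It had 6079, 12395 and 11333 FPKM in mycelium, 39.8, 70.4 and 102 in mature cap, and 22.9, 34.3 and 49.2 in mature stipe, with 2.98 to 8.61 FPKM in the 15 early libraries. It was thus above all early libraries in mature tissue, but by far less than in mycelium. Its log2 fold change against mycelium was -7.13 ± 0.52 in cap and -8.13 ± 0.54 in stipe (SE; edgeR). Among genes higher in cap without overlap, gene 4176 led, with 10.8, 9.56 and 6.63 FPKM in mycelium and 66.6, 75.2 and 69.3 in mature cap, a log2 fold change of 2.97 ± 0.32 (edgeR). Gene 8525 was higher in mature stipe than in mycelium by 4.35 ± 1.12 log2 units (edgeR), at 2270, 3479 and 1206 FPKM against 275, 39.1 and 27.3. Its coding length was 90 bases, the shortest of the 115, and its mycelium libraries 2 and 3 held 37 and 41 counts, below the highest early library (40.1 FPKM, stage 1 replicate 1).

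Mature cap and stipe, both of which entered the choice, were then set against each other. The median over the 115 genes was -0.59 log2 units (cap minus stipe), beside -0.02 over all genes, and 100 of the 115 had a value below 0. The median was -0.36 without mature cap replicate 1. The count of calls depended on the tool. With edgeR 2 were lower in cap, against 1.68% of all genes called in either direction and 1.46% lower. DESeq2 called 8 (2.57% of all genes), limma 7 (1.90%) and edgeR on these groups alone 12 (3.48%), all lower in cap. None was higher in cap, against 0.222% of all genes (edgeR; 1 at an unadjusted p under 0.05). In this comparison mature cap replicate 1 stood apart. It was the lowest of the 3 cap libraries for 101 of the 115 genes (87.8%), against 45.2% of the table, and its median over the 115 genes was 5.52 log2 FPKM beside 6.27 and 6.44 in the other caps. Without it, without cap replicate 3 or without stipe replicate 1, 1 gene was called. Gene 6899 had 53.0, 245 and 144 FPKM in mature cap and 1101, 987 and 482 in mature stipe, with no overlap. The log2 fold change was -2.54 ± 0.54 (edgeR). Its call was lost without mature cap replicate 1 or 3, without mature stipe replicate 1, and in the fit of these groups alone.

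Levels also varied among the early groups, all of which entered the choice through the highest of them. Stage 1 primordia had the highest early mean for 58 of the 115 genes (50.4%, beside 21.7% of the table), young stipe for 32, young cap for 18, stage 3 stipe for 5 and stage 3 cap for 2. The lowest early mean was in stage 3 cap for 50 genes (43.5%, beside 22.9% of the table) and in stage 3 stipe for 35 (30.4%, beside 22.8%). The early means of a gene spanned at least 2 log2 units for 21 of the 115 genes and under 1 for 38. Young cap differed from stage 1 primordia in 10 of the 115 genes, 2 higher and 8 lower (edgeR), against 4.76% of all genes in either direction, 1.96% higher and 2.80% lower. Young stipe differed in 16, 4 higher and 12 lower (edgeR), against 3.97% of all genes, 1.03% higher and 2.94% lower. Both counts share the stage 1 libraries and rested on single ones. Without stage 1 replicate 1 they were 4 and 2. The cap count was 4, 2 and 6 without young cap replicates 1, 2 and 3, and the stipe count was 4 without young stipe replicate 1 and 8 without replicate 3. Stage 1 replicate 1 was the highest of its group for 54.8% of the 115 genes, against 38.0% of the table.

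Gene 11375 led the called increases without overlap from stage 1 to young cap, from 37.4, 34.0 and 33.4 to 126, 109 and 157 FPKM (1.91 ± 0.46 log2 units; edgeR). It was also at 37.8, 107 and 165 FPKM in young stipe and 651, 1281 and 1500 in mature cap, so that all 6 young libraries lay above stage 1 and below mature cap, young stipe replicate 1 by little. Gene 6899 was lower in young cap (6.01, 5.57 and 6.67 FPKM) than in stage 1 primordia (28.4, 53.7 and 9.51), by -2.34 ± 0.56 log2 units (edgeR). This call was lost without stage 1 replicate 2 or young cap replicate 1 or 2, and in a fit of these groups alone. In young stipe, gene 9116 was higher than in stage 1 by 2.32 ± 0.65 log2 units (edgeR), at 12.9, 8.10 and 12.7 against 1.60, 3.60 and 1.55 FPKM. Gene 5588 was lower there by -2.64 ± 0.77 (edgeR), at 0.276, 0.723 and 0.261 against 5.06, 1.65 and 1.11 FPKM. The calls of both genes were lost without stage 1 replicate 1, without young stipe replicate 1 or 3, and with limma. That of gene 9116 was also lost without stage 1 replicate 3. The call of gene 5588 was near the limit (edgeR, adjusted p = 0.0487), and its change with limma was -1.20. It was also lost without stage 1 replicate 2, with DESeq2 size factors, in a fit of these groups alone, and with the replicate block added after seeing the data.

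Tests of the tissues that the choice did not use against each other, given further below, use none of its values. The counts in this paragraph that set these tissues against mature cap, mature stipe or the early groups are not independent of the choice. Their limits are means that the choice itself used, so they are description only. The median level of the 115 genes was 4.06 log2 FPKM in lamellae, 5.50 in skin and 6.43 in dedifferentiated cap. A gene was placed near the mature level where a tissue's mean was at most 1 log2 unit below the lower of mature cap and stipe, and near the early level where it was at most 1 above the highest early mean. In skin 95 genes were near the mature level, 16 between and 4 near the early level. In lamellae 31 were near the mature level, 37 between and 47 near the early level, 15 of them below the highest early mean. In dedifferentiated cap 80 were near the mature level, 15 between and 20 near the early level. There, 55 of the 115 genes were above both mature cap and stipe, and 47 had their highest mean of all 11 groups. For these counts the shares over all genes were not computed, and the mean in this tissue rests on 2 libraries. The dedifferentiated libraries had totals of 19.5 and 21.0 M, within the range of the early libraries.

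Lamellae were lower than skin in 51 of the 115 genes and higher in 1 (edgeR), against 9.79% lower and 9.21% higher of all genes. The median log2 fold change was -1.31, beside -0.02 over all genes, and 101 of the 115 genes had a value below 0. Gene 312 had 6.27, 6.04 and 3.27 FPKM in lamellae and 146, 127 and 184 in skin. Its lamellae libraries all lay below the lowest stage 1 library (13.3 FPKM) but not below all early ones. Stage 3 cap was similarly low, with 41, 31.5 and 47 counts beside 65, 40 and 35 in lamellae. The skin libraries of gene 312 lay above all early ones, of which the highest was 42.0. In mycelium it had 32.6, 293 and 163 FPKM, so that replicate 1 overlapped young stipe. The log2 fold change was -4.89 ± 0.60 (edgeR, adjusted p = 9.47e-07). Of the 14 genes with a value above 0, gene 3907 was the 1 that was called. It was higher in lamellae (3771, 2308 and 2498 FPKM) than in skin (135, 124 and 298) by 3.95 ± 0.72 log2 units (edgeR, adjusted p = 0.000187). Its mycelium libraries were uneven, at 2655, 227 and 251 FPKM, and its coding length was 273 bases.

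Dedifferentiated cap was higher than lamellae in 73 of the 115 genes and lower in 8 (edgeR), against 18.5% higher and 13.3% lower of all genes, with a median of 2.04 log2 units beside -0.04 over all genes. Against skin it was higher in 50 and lower in 17 (edgeR), where 16.8% of all genes were higher and 11.7% lower, with a median of 1.16 beside -0.03. These comparisons share the dedifferentiated libraries, and each shares a group with the comparison of lamellae and skin. The 2 dedifferentiated libraries were at least 4-fold apart for 15 of the 115 genes, against 4.26% of the table. With replicate 1 alone, 71 and 46 genes were called against lamellae and skin, and with replicate 2 alone 66 and 59, where the spread of the single library was taken from the other groups. Genes called lower against lamellae were 2 with replicate 1 alone and 5 with replicate 2 alone, and against skin 5 and 12. Without lamellae replicate 1 or 2, 4 were lower than in lamellae.

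**Figure D3:**
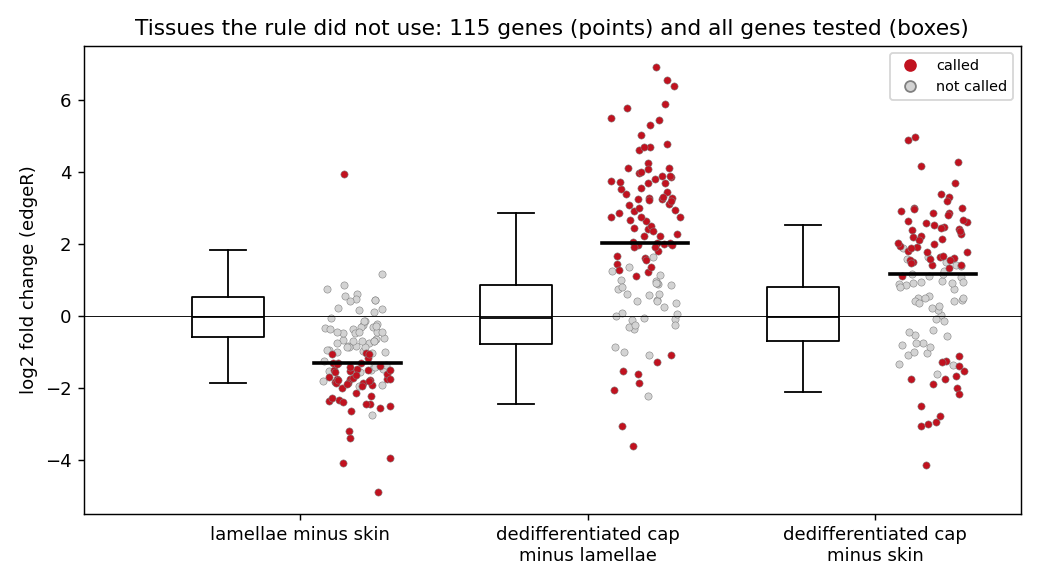
Log2 fold changes (edgeR) of the 115 genes (points, red where called, black bar at the median) and of all 10814 genes tested (box over the interquartile range, whiskers at the 5th and 95th percentiles) in the 3 comparisons among tissues not used to choose the genes. The medians of the 115 genes are -1.31, 2.04 and 1.16, while those of all genes are close to 0.

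Gene 11214 had the largest increase in both comparisons, with 246 and 1461 FPKM in dedifferentiated cap, 2.15, 11.3 and 7.97 in lamellae and 29.3, 11.9 and 40.0 in skin. Its early libraries ran from 0.741 to 10.6 FPKM, so that lamellae overlapped the early range and skin did not. The log2 fold change was 6.92 ± 0.99 against lamellae (edgeR, adjusted p = 4.01e-06) and 4.98 ± 0.91 against skin (edgeR, adjusted p = 0.000135). Without dedifferentiated replicate 2 the change was 5.12 against lamellae and 3.18 against skin (edgeR, adjusted p = 0.0163). Gene 9116 showed the reverse, with 28.7 and 2.27 FPKM in dedifferentiated cap and 203, 167 and 191 in lamellae, a change of -3.60 ± 0.79 (edgeR, adjusted p = 0.000718). Its value was -2.71 without dedifferentiated replicate 2 and -6.35 without replicate 1. Gene 8525 was lower in dedifferentiated cap (65.4 and 5.25 FPKM) than in skin (596, 378 and 857) by -4.13 ± 1.33 log2 units (edgeR, adjusted p = 0.0193), and without dedifferentiated replicate 2 the adjusted p was 0.193 (edgeR). Gene 9698 had 4.59 and 341 FPKM in the dedifferentiated libraries, which lay on either side of its 9.24, 13.8 and 16.8 FPKM in lamellae.

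**Figure D4:**
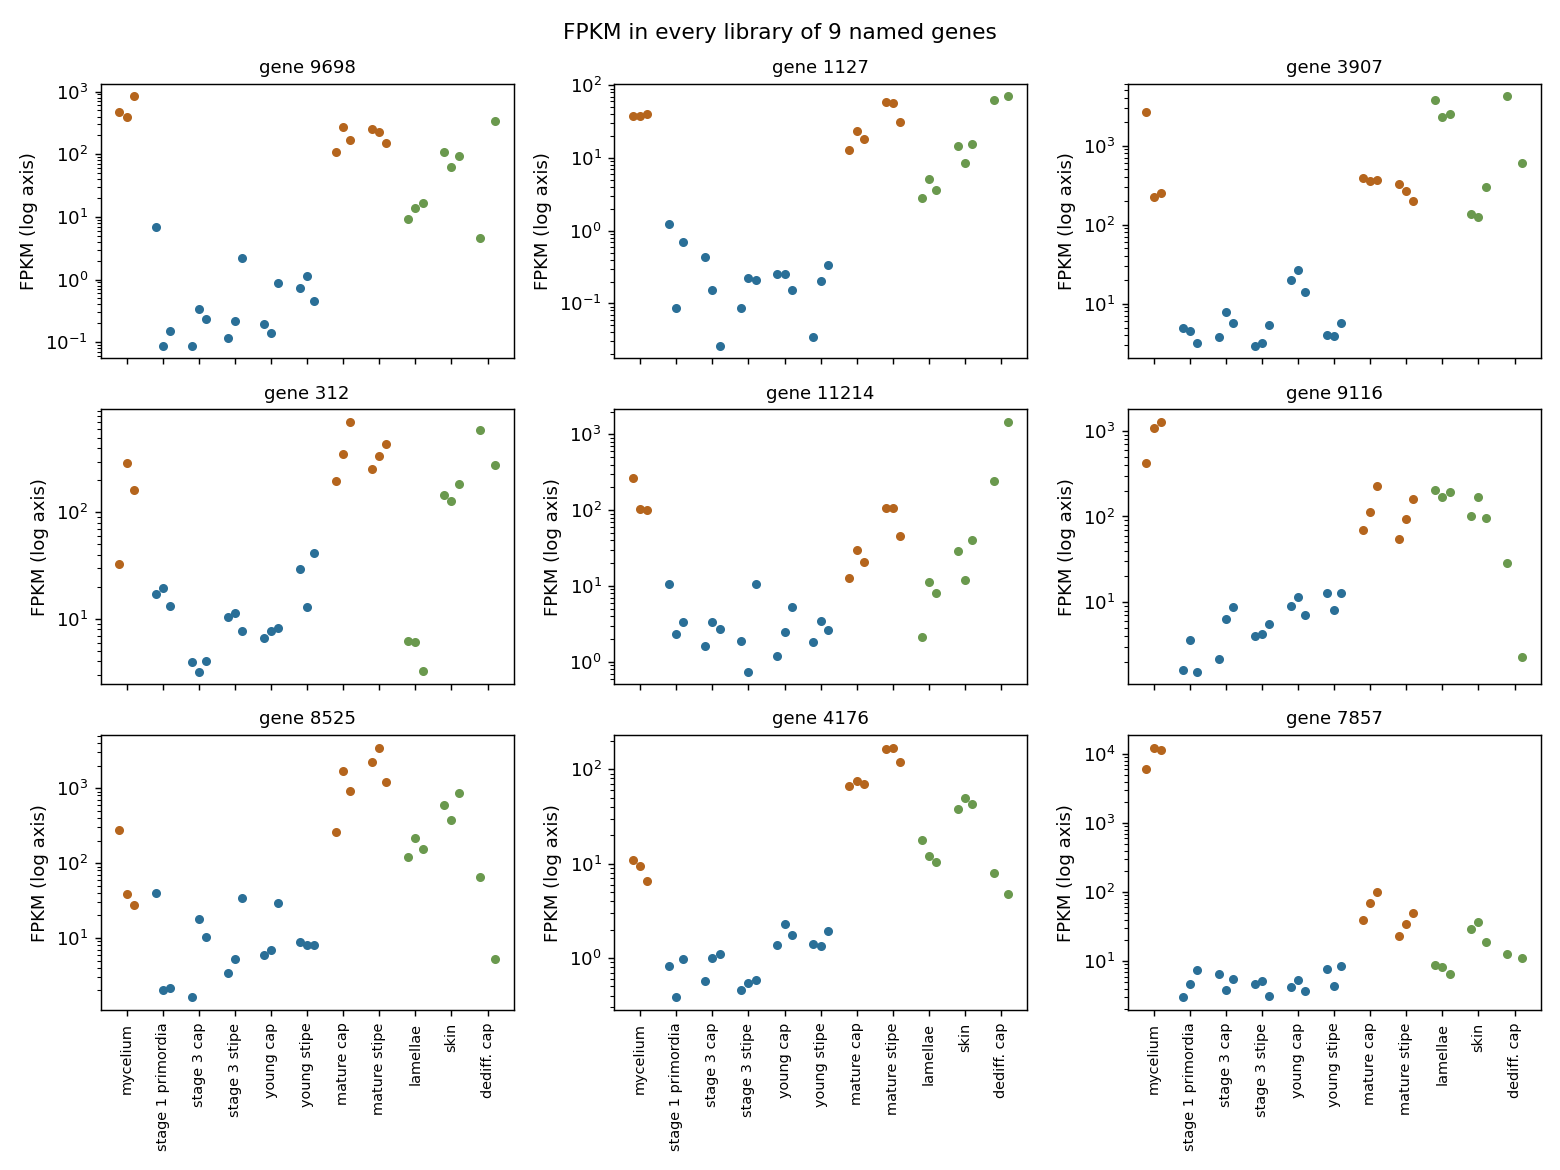
FPKM of 9 named genes in every library (log axis, a range per panel), by tissue group, with brown for groups required to be high, blue for groups required to be low and green for groups not used. Gene 312 is lowest in stage 3 cap and lamellae, and gene 7857 is far higher in mycelium than elsewhere. The dedifferentiated libraries of genes 9698, 11214, 3907, 9116 and 8525 are far apart.

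The 20 genes near the early level in dedifferentiated cap and the 80 near the mature level were compared by their medians in other groups, with no test. In mycelium these were 6.86 and 6.97 log2 FPKM, in mature cap 6.13 and 6.08, and in mature stipe 6.60 and 6.75. In lamellae they were 4.09 and 4.31, and in skin 5.21 and 5.87. Of the early groups, stage 1 primordia had 2.66 and 2.81, stage 3 cap 2.33 and 2.14, and stage 3 stipe 2.86 and 2.00. Young cap had 2.57 and 2.41, and young stipe 3.25 and 2.51. The medians of 3.50 and 7.70 in dedifferentiated cap follow from the classes, which were cut on that tissue. A higher early mean also makes a gene easier to place near the early level. Of the 20, 14 were also near the early level in lamellae, and of the 80, 28 were. Across all 3 tissues, 24 genes were near the mature level throughout. Another 27 were near the early level in lamellae and near the mature level in both skin and dedifferentiated cap. Near the early level throughout were 2, among them gene 4244, with 438, 467 and 345 FPKM in lamellae, 393, 198 and 331 in skin, and 124 and 76.6 in dedifferentiated cap.

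**Figure D5:**
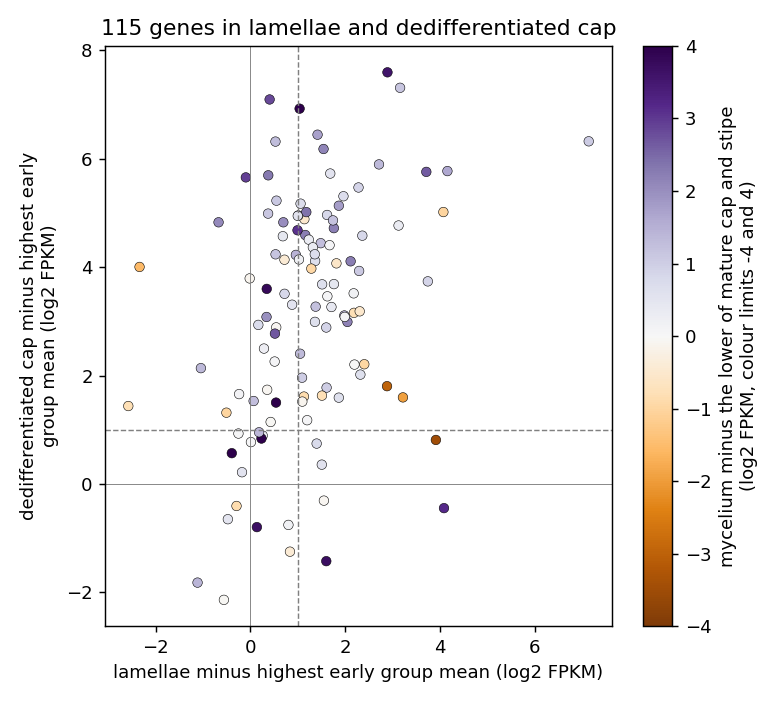
Mean log2 FPKM of each of the 115 genes in lamellae (horizontal axis) and dedifferentiated cap (vertical axis), both relative to the gene's highest early group mean, coloured by the difference of mycelium from the lower of mature cap and stipe. Solid lines mark the highest early mean and dashed lines 1 log2 unit above it. Of the genes, 47 are near the early level in lamellae and 20 in dedifferentiated cap.

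For comparison, the same tests are given for the 932 genes that met the mycelial part of the rule, with its count minimum, but not the mature part, and for the 104 that met the mature part but not the mycelial one. No gene is in both lists, and 21 of the 932 had the gap in all groups but missed the count minimum in mature cap or stipe. In dedifferentiated cap against lamellae, 63.5% of the 115 genes were called higher and 6.96% lower, against 49.0 and 6.76% of the 932 and 20.2 and 30.8% of the 104. Against skin the shares were 43.5 and 14.8% of the 115, 41.2 and 6.87% of the 932, and 8.65 and 47.1% of the 104. In lamellae against skin, 44.3% of the 115, 15.6% of the 932 and 36.5% of the 104 were called lower. The differences between these lists were not tested.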

How the data were processed

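RNA sequencing of poly(A) RNA, in strand-specific libraries read from 2 ends of 150 bases, was done by the authors, per the labels' protocols. The submitters' processing notes name STAR, featureCounts, R 3.0.2, edgeR 3.4.2 and limma 3.18.13 without saying which step each served; build and annotation version: not given in the sources used here. The authors deposited expected counts per gene and library (12329 genes; 95.2% of values above 0 were whole within 0.000001, the rest fractions), rounded here before testing. The authors also deposited log2 values, a table of log2 FPKM per gene and library whose name carries PleosPC15. How they were normalised is not stated. At counts near 0 the FPKM lie above what the count alone gives. A small amount thus appears to have been added, and the lowest FPKM depend on it. Gene lengths were computed from counts, FPKM and library totals scaled by the TMM factors of the tests below. For 167 deep genes these lengths were all multiples of 3 within a tolerance of 0.1 of length over 3 after scaling by 1 constant. They are therefore called coding lengths. Because totals scaled by TMM factors gave these multiples, the log2 FPKM appear to carry a scaling of this kind. Totals without the factors were not tried in this check. The rule with library size alone, given below, leaves that scaling out.

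Tests used edgeR 4.0.16 in R 4.3.3 over all 32 libraries: filterByExpr (10814 genes), TMM scaling, a mean per group, robust quasi-likelihood with 21 residual degrees of freedom, and Benjamini-Hochberg adjustment over all genes tested. Checks on simulated data came first. In each, 200 genes were changed and recovery was counted at an adjusted p below 0.05 (edgeR). For lamellae against skin, 4.5% of 2-fold and 78% of 4-fold changes were recovered. For dedifferentiated cap against lamellae the shares were 0.5 and 60.5%. In the simulation only the 200 genes differed between groups, whereas 31.8% of all genes were called for that comparison in the data. The adjustment is stricter where fewer genes change, so these shares need not match the recovery in the real tests. A gene not called is still not shown to be unchanged. Members and lists were chosen with earlier results of these data known. The text names, for each of 8 comparisons, the member with the largest called change each way (mean count at least 10 in both groups, no overlap), the 4 highest members, the 2 with the widest gap, and the nearest 2 genes inside and outside the threshold; the values of genes 9698 and 4244 in the other mature tissues were added after they were seen. Of 31 replicate pairs, 0 were identical, and chi-square over degrees of freedom was at least 19.1. The labels call replicates biological but do not say whether pools were grown separately, so p-values measure the spread between pools.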

Additional observations from a re-analysis of the deposited data

How the results depend on the processing

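The rule gave 478 genes with a gap of 1 log2 unit, 27 with a gap of 3, and 21 where every high library had to be at least 2 log2 units above every early library; under log2(FPKM + 1) it gave 84 and with library size alone 78. Leaving out 1 of the 24 libraries it used gave 97 to 139 genes (lowest without replicate 2 of mature cap, highest without its replicate 1), and 64 of the 115 genes met it in every such run. The counts of called genes for lamellae against skin (41 to 58 over single libraries left out), dedifferentiated cap against lamellae (66 to 83) and against skin (46 to 71), mature cap against mycelium (37 to 47) and mature stipe against mycelium (26 to 39) stayed within 1.5 times the main count in all alternatives run, which were DESeq2 size factors, scaling by library size, all genes kept, a fit of the compared groups, the DESeq2 test, limma on log2(FPKM + 1), the replicate block and single libraries left out. Mature cap against stipe was called in 8 genes by DESeq2, 7 by limma and 12 in a fit of these groups, where 2.57, 1.90 and 3.48% of all genes were called (1 to 3 with a library left out). Young cap against stage 1 gave 3 genes with limma and 4 with only these groups (2 to 10 with a library left out), and young stipe against stage 1 gave 5 with limma and 1 with only these groups (2 to 22); the cause was not tested. Of 221 values of the named genes under alternatives, 199 kept their call, 22 lost it (genes 5588, 6899, 8525 and 9116) and 0 turned direction. With the replicate block the counts were 51, 78, 67, 42, 34, 2, 8 and 14 in the order of these comparisons as listed; same-numbered libraries correlated at -0.654 to 0.436 in their deviations from group means, and the number marks no shared batch in the labels. The dedifferentiated libraries are numbered 1 and 2 in the titles, used here, but 2 and 3 in the file columns; a block with the latter, added after seeing the data, gave 51, 78, 63, 43, 34, 2, 9 and 12 genes. A fit without stage 3 stipe replicate 3, the library with the lowest TMM factor (0.690), was added after seeing the data and gave 58, 83, 71, 47, 36, 3, 10 and 22 genes in the same order. The all-gene median shifted under scaling by library size by 0.12 in cap against stipe, -0.10 in dedifferentiated cap against lamellae and -0.17 in stipe against mycelium, where the split was then 10 higher and 29 lower; no median over the 115 genes changed sign under this scaling. Without mycelium replicate 2, that of stipe against mycelium turned from -0.27 to 0.019. Genes with counts near 0 in early libraries, such as gene 1127, have imprecise early levels at this depth, and the dedifferentiated cap rests on 2 libraries.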

Other observations

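Among the 115 genes were 4 pairs with successive numbers in the files: 1430 and 1431, 1466 and 1467, 5920 and 5921, and 7857 and 7858. The files do not say how the numbers relate to position on the chromosomes. Genes 7857 and 7858 had the same order of groups at different levels, with means of 9936 and 594 FPKM in mycelium, 70.7 and 31.7 in mature cap, 35.5 and 26.9 in mature stipe, 28.3 and 11.6 in skin, 11.9 and 4.45 in dedifferentiated cap and 7.89 and 2.27 in lamellae. Genes 1466 and 1467 did not run in parallel: in mycelium they had 6.04 and 96.3 FPKM, in mature cap 6.32 and 7.26, and in dedifferentiated cap 1.86 and 25.2. These genes were picked for their numbers, and no test was run on the pairs.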
